A study of Mus musculus with 8 samples.

Results

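The genes described here are 10 genes of osteoclast differentiation, cell fusion and the RANK receptor axis. They were taken by gene symbol, and 10 of 10 were found among the 25239 symbols of the deposited count table. They are the receptor RANK (Tnfrsf11a) and its soluble decoy osteoprotegerin (Tnfrsf11b), the transcription factor Nfatc1, the costimulatory receptor Oscar, the integrin subunit Itgb3, the fusion proteins Dcstamp and Ocstamp, and the resorption enzymes Acp5, Ctsk and Mmp9. The rule used the symbols alone and no measured value.

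Polyadenylated RNA was sequenced from primary cells of the mouse calvaria, the bony roof of the skull, that are labelled osteoblasts. There were 4 libraries labelled as an OSX-SphK2 knockout and 4 libraries from littermate controls labelled WT, and each set is numbered 1 to 4. Sphk2 encodes sphingosine kinase 2, and OSX is osterix, a transcription factor of the osteoblast lineage (gene Sp7). The labels give no age, sex, treatment, number of animals per library or construct behind the deletion, and the p-values therefore rest on variation among libraries that may in part be technical.

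Osteoclasts are the cells that resorb bone, and they form when precursors of the monocyte and macrophage lineage fuse. RANK ligand (RANKL, gene Tnfsf11), made by osteoblast-lineage and other cells, binds RANK on the precursors, and osteoprotegerin, secreted by osteoblast-lineage cells, binds the ligand in its place. RANK signalling, together with signals from immunoglobulin-like receptors such as OSCAR, induces NFATc1, the master transcription factor of the lineage, which switches on the genes for fusion, attachment and acid and protease secretion. M-CSF (gene Csf1) keeps the precursors alive through its receptor Csf1r.

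Total counts ran from 14347495 to 19065421 per library. The targeted gene stood at like levels in both groups, with Sphk2 at 69.7, 72.3, 72.1 and 131.1 CPM, the count scaled to library size with TMM factors, in the KO-labelled libraries 1 to 4, against 75.8, 64.2, 82.5 and 133.8 CPM in controls 1 to 4. Counts over a whole gene include reads outside a deleted part, so this does not check the labels, and every direction is given by label. The 16 macrophage markers summed to 32258 to 54418 CPM in KO-labelled libraries and 32563 to 42882 CPM in controls, with none at 0. The 19 osteoblast markers summed to 4173 to 15785 CPM in KO-labelled libraries and 6449 to 16951 CPM in controls, mostly collagen, Sparc and Spp1. In each of the 8 libraries this sum was below that of the macrophage markers. Of the macrophage sum, Lyz2 alone took 16416 to 34460 CPM in KO-labelled libraries and 17736 to 24427 CPM in controls. In control 2 Lyz2 took 17736 of 32563 CPM, beside an osteoblast sum of 16951 CPM, so the order there depends on this 1 gene. The lineage factor Runx2 was at 18.4 to 35.2 CPM in KO-labelled libraries and 19.9 to 49.9 CPM in controls, and Sp7 at 10.6 to 37.2 CPM in KO-labelled libraries and 3.29 to 46.2 CPM in controls. Of the genes of mature osteoblasts, osteocalcin (Bglap) stood at 42.3, 0.49, 0.28 and 0 CPM in KO-labelled libraries, against 0.37, 0.22, 0.58 and 0.28 CPM in controls. Sost was at 0 in 7 of the 8 libraries, and Bglap2, Dmp1 and Phex stood at 40.7, 13.7 and 9.80 CPM in KO-labelled 1 and at most 0.98 CPM in each other library. The 2 libraries numbered 4, 1 of each genotype, stood apart from the other 6, so results are given with and without them.

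Of the 10 members, 4 have a promoter window in the RefSeq table of GRCm38.p6, namely Acp5, Ctsk, Oscar and Tnfrsf11a, and these 4 are shown whatever their levels. Each sequence is the 250 bases before an annotated start, read 5′ to 3′ on the gene's strand, and capitals mark matches on either strand to the NFAT core GGAAA, the PU.1 core GAGGAA and the E-box CATGTG, which MITF can bind. The Acp5 window is chr9:22130599-22130848 on the minus strand, 1 of 3 starts listed for the gene and the only one of the 3 whose first bases match an annotated transcript. The Ctsk window is chr3:95498960-95499209 on the plus strand, before a start whose first bases match no transcript of GENCODE M21, the Oscar window chr7:3616158-3616407 on the minus strand and the Tnfrsf11a window chr1:105780473-105780722 on the plus strand.
Acp5: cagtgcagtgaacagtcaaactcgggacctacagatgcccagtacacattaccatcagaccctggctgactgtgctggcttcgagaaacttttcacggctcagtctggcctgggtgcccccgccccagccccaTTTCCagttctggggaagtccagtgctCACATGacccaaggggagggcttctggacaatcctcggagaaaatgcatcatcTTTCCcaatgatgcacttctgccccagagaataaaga
Ctsk: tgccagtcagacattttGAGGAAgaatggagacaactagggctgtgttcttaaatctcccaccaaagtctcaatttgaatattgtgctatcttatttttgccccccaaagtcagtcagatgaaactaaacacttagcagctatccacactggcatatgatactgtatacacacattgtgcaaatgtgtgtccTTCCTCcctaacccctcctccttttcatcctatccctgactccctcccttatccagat
Oscar: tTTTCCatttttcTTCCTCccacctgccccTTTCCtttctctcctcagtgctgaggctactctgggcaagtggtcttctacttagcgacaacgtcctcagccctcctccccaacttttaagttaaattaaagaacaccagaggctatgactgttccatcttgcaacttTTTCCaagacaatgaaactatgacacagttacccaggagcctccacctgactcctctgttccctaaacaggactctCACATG
Tnfrsf11a: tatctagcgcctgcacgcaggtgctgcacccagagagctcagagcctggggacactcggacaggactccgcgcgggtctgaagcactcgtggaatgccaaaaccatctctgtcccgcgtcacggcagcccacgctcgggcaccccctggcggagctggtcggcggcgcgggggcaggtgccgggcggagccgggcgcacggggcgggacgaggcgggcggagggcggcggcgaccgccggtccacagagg

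The Acp5 window held 2 NFAT cores and 1 CATGTG. The Oscar window held 3 NFAT cores, 1 PU.1 core and 1 CATGTG, and the Ctsk window 2 PU.1 cores. The Tnfrsf11a window held no match to these motifs, and none of the 4 windows held the AP-1 site TGANTCA, the E-box CACGTG or the TATA box TATAAA. No matches overlapped. Over all 32851 windows of the same length, 55.6% held GGAAA, 23.3% GAGGAA, 12.3% CATGTG, 6.75% TGANTCA, 6.02% CACGTG and 12.4% TATAAA. These are matches of letters only, and GGAAA occurs in most promoters.

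Between genotypes, no member passed the threshold, an adjusted p under 0.05 in edgeR's quasi-likelihood test with Benjamini-Hochberg adjustment over all genes. Of 12837 genes tested, 0 (0.0%) were higher and 0 (0.0%) lower in the KO-labelled libraries, while 631 (4.92%) had an unadjusted p under 0.05, none of them a member. DESeq2 called 115 genes higher (0.931%) and 45 lower (0.364%), again with no member, and it gave no adjusted p for Oscar, Dcstamp, Ocstamp, Acp5, Ctsk and Mmp9. Low counts in numbers 1 to 3 kept Oscar and Ocstamp out of the edgeR test, so 8 of 10 members were tested, each with an adjusted p of 0.9999. The groups overlapped for 10 of 10 members, where 2.32% of all tested genes lay wholly above and 1.27% wholly below the controls. Exact two-sided permutation tests of log2 CPM gave p of 0.314 to 0.971 for the members, and the smallest p that 4 against 4 allows is 0.0286. With the number as a replicate block 168 genes were higher (1.31%) and 151 lower (1.18%), and no member was among them.

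**Figure D1:**
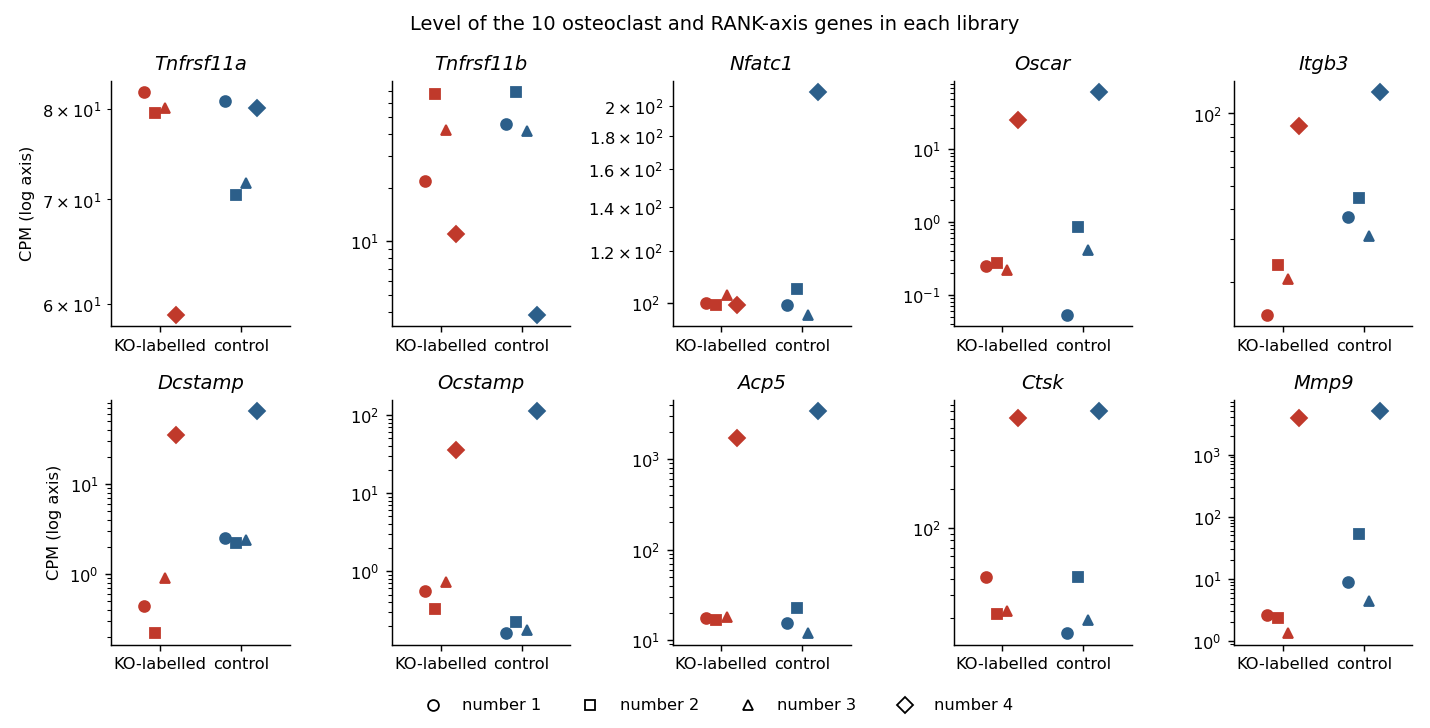
CPM of each of the 10 genes on a log axis, KO-labelled libraries left of controls, with 1 point per library and its number shown by the marker. Acp5, Ctsk, Mmp9, Oscar, Dcstamp, Ocstamp and Itgb3 are highest in the 2 libraries numbered 4, and Tnfrsf11b is lowest there.

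Leaving out both libraries numbered 4 brought Itgb3 and Dcstamp past the threshold, both lower in the KO-labelled libraries. In bulk RNA, fewer cells of a type and less RNA per cell cannot be told apart, here and for each value given. In that fit 1005 of 12919 genes were higher (7.78%) and 812 lower (6.29%), so 2 of the 8 members tested fell there and 0 rose. With the replicate block as well, 1593 genes were higher (12.3%) and 1539 lower (11.9%), and the same 2 members fell. In numbers 1 to 3 the groups did not overlap for Itgb3, Dcstamp and Mmp9, with the KO-labelled libraries below, and for Ocstamp, with them above, while of 12919 genes tested there 16.4% lay wholly below and 18.2% wholly above the controls.

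Tnfrsf11a, at chr1:105780718-105847981 (GRCm38, plus strand), encodes RANK, the receptor that precursors need to become osteoclasts. It stood at 82.1, 79.6, 80.1 and 59.0 CPM in KO-labelled libraries 1 to 4, against 81.0, 70.5, 71.7 and 80.1 CPM in controls 1 to 4. Over the 8 libraries it varied least of the 10, with the groups interleaved and KO-labelled 4 the lowest library. The means were 75.2 ± 10.9 CPM in KO-labelled libraries and 75.8 ± 5.51 CPM in controls (SD, n = 4 each), with a log2 fold change of −0.01 (SE 0.13). Without the libraries numbered 4 the log2 fold change was 0.12.

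Tnfrsf11b, at chr15:54250619-54278484 (minus strand), encodes osteoprotegerin. Its level was 21.8, 67.3, 42.3 and 10.9 CPM in KO-labelled libraries, against 45.6, 68.8, 41.8 and 3.85 CPM in controls. The libraries numbered 4 were the lowest in each genotype, with library 4 at 0.249 of the mean of its group's other libraries among those labelled knockout and 0.0739 of it among controls. The log2 fold change came to −0.17 (SE 0.80), and −0.24 in numbers 1 to 3. The log2 differences from the same-numbered control were −1.06, −0.03, 0.02 and 1.48 in numbers 1 to 4.

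The ligand gene Tnfsf11, which is not among the 10, lies at chr14:78277445-78308043 (minus strand). It had 15, 41, 31 and 15 counts in KO-labelled libraries (0.93, 2.23, 1.72 and 1.09 CPM), against 74, 127, 83 and 7 counts in controls (3.92, 7.14, 4.83 and 0.49 CPM). Among numbers 1 to 3 each KO-labelled library lay below each control, while control 4 was the lowest of all 8. Over 8 libraries the log2 fold change came to −1.45 (SE 0.69) and did not pass, at an adjusted p of 0.9999 and an unadjusted p of 0.0679. Without the libraries numbered 4 Tnfsf11 fell, with a log2 fold change of −1.68 (SE 0.35, adjusted p of 0.0136), and −1.71 (SE 0.24) with the replicate block.

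The count of Tnfsf11 per count of Tnfrsf11b, a ratio formed within each library, was 0.0426, 0.0331, 0.0407 and 0.10 in KO-labelled libraries 1 to 4, against 0.0859, 0.104, 0.116 and 0.127 in controls 1 to 4. The ratio was lower than in the same-numbered control in each of the 4 numbers, but KO-labelled 4 lay above control 1, so the groups overlapped. On the log2 scale the means were −4.32 ± 0.71 in KO-labelled libraries and −3.20 ± 0.27 in controls (SD, n = 4 each), a difference of −1.12. An exact permutation test, two-sided, gave p = 0.0571, above the threshold, where the smallest possible is 0.0286. With libraries paired by number the log2 differences were −0.98, −1.64, −1.49 and −0.39, and the exact sign-flip test gave p = 0.125, the smallest that 4 pairs allow. The ratio rests on 15 counts of Tnfsf11 in KO-labelled 4 and 7 in control 4.

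**Figure D2:**
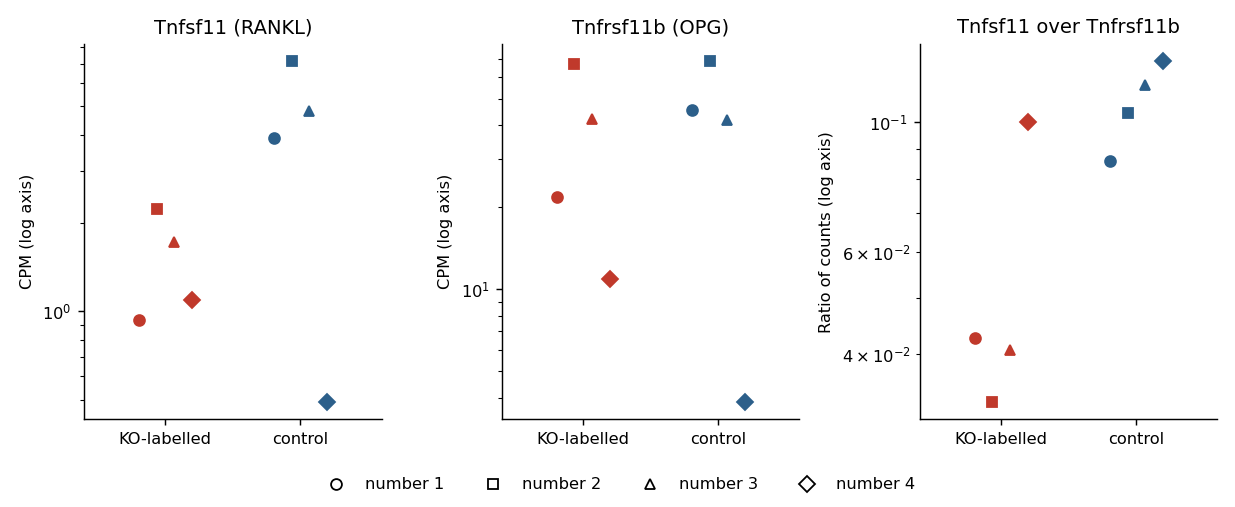
CPM of Tnfsf11 (left) and Tnfrsf11b (middle) and the ratio of their counts (right) on log axes, KO-labelled libraries left of controls, 1 point per library. The ratio runs from 0.0331 to 0.10 in KO-labelled libraries and from 0.0859 to 0.127 in controls.

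Nfatc1 stood at 100.1, 99.4, 103.0 and 99.6 CPM in KO-labelled libraries, against 99.4, 105.1, 96.0 and 209.8 CPM in controls. Control 4 alone was high, and the other 7 libraries lay between 96.0 and 105.1 CPM. The log2 fold change came to −0.34 (SE 0.26), and 0.01 in numbers 1 to 3. KO-labelled 4 was at 0.987 of the mean of its group's other libraries and control 4 at 2.09 of it, while Acp5, Ctsk and Mmp9 were far higher in both of these libraries than in the others.

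Oscar, at chr7:3609813-3616157 (minus strand), encodes a collagen-binding receptor that signals through the adaptor FcRγ (gene Fcer1g). Its counts were 4, 5, 4 and 352 in KO-labelled libraries (0.25, 0.27, 0.22 and 25.6 CPM), against 1, 15, 7 and 877 in controls (0.05, 0.84, 0.41 and 61.3 CPM). The gene had at most 15 counts in 6 libraries and was well measured in the 2 numbered 4. With no low-count filter and without those 2 libraries the log2 fold change came to −0.78 (SE 0.80, adjusted p of 0.628), a setting chosen after the data were seen in which 5.64% of 17682 genes were higher and 4.7% lower.

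Itgb3, at chr11:104608000-104670476 (plus strand), encodes integrin β3, which pairs with the αv chain (Itgav) to attach osteoclasts to bone. Its level was 14.6, 23.6, 20.6 and 89.0 CPM in KO-labelled libraries, against 37.3, 44.4, 31.0 and 122.6 CPM in controls. Within each number the KO-labelled library was the lower, by log2 differences of −1.35, −0.91, −0.59 and −0.46 in numbers 1 to 4. The share of all tested genes that were lower in each number is not given here, so this order has no background beside it. Over 8 libraries the log2 fold change came to −0.67 (SE 0.68) and did not pass, nor did it with the replicate block (−0.82, adjusted p of 0.058).

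In numbers 1 to 3 Itgb3 averaged 19.6 ± 4.58 CPM in KO-labelled libraries and 37.5 ± 6.69 CPM in controls (SD, n = 3 each), with no overlap. It fell there, with a log2 fold change of −0.94 (SE 0.20, edgeR adjusted p of 0.0256) and an adjusted p of 0.0035 with the replicate block. Itgav fell in the same 6 libraries, with a log2 fold change of −0.30 (SE 0.07, adjusted p of 0.021).

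Dcstamp, at chr15:39745930-39760938 (plus strand), encodes DC-STAMP, a membrane protein required for fusion of osteoclast precursors in mice. Its counts were 7, 4, 16 and 484 in KO-labelled libraries (0.43, 0.22, 0.89 and 35.3 CPM), against 48, 39, 41 and 940 in controls (2.54, 2.19, 2.39 and 65.7 CPM). The KO-labelled library was the lower in each of the 4 numbers, by log2 differences of −2.26, −2.78, −1.31 and −0.90, again without a share over all genes to set beside it. The log2 fold change over 8 libraries came to −0.99 (SE 1.78), and −1.54 with the replicate block (adjusted p of 0.0883), so Dcstamp passed in neither.

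In numbers 1 to 3 Dcstamp averaged 0.51 ± 0.34 CPM in KO-labelled libraries and 2.37 ± 0.17 CPM in controls (SD, n = 3 each), and it fell with a log2 fold change of −2.19 (SE 0.43, edgeR adjusted p of 0.0118). The gene passed the low-count filter there through the controls, since 2 of the 3 KO-labelled libraries had fewer than 10 counts. With no low-count filter the adjusted p was 0.0037.

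Ocstamp, at chr2:165393760-165400405 (minus strand), encodes OC-STAMP, a related fusion protein. Its counts were 9, 6, 13 and 484 in KO-labelled libraries (0.56, 0.33, 0.72 and 35.3 CPM), against 3, 4, 3 and 1625 in controls (0.16, 0.22, 0.17 and 113.6 CPM). Among numbers 1 to 3 the KO-labelled libraries lay above the controls without overlap, the opposite order to Dcstamp, but on 28 counts in all against 10. With no low-count filter and without number 4 the log2 fold change came to 1.49 (SE 0.67), which did not pass (adjusted p of 0.20). In number 4 the order was turned, with a log2 difference of −1.69.

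**Figure D3:**
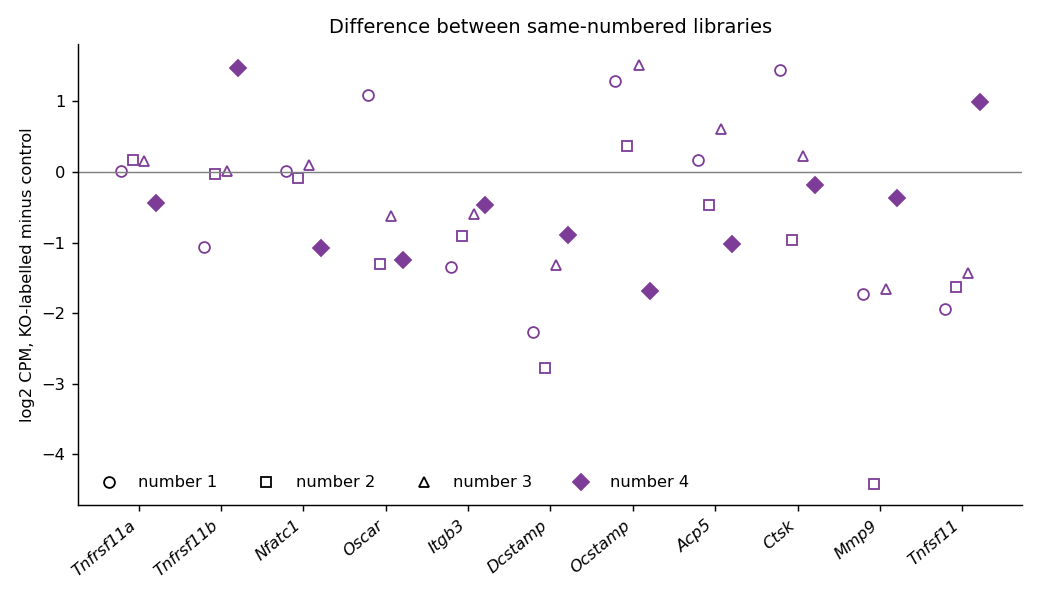
Difference in log2 CPM, KO-labelled minus control, between libraries of the same number, for the 10 genes and Tnfsf11. Itgb3, Dcstamp and Mmp9 lie below 0 in each of the 4 numbers, and the filled diamonds of number 4 lie below 0 for 9 of the 10 members, Tnfrsf11b being the exception. The shares of all tested genes that lie so are not given here.

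Acp5, at chr9:22126727-22135711 (minus strand), encodes tartrate-resistant acid phosphatase (TRAP), the enzyme by which osteoclasts are stained. It stood at 17.5, 16.6, 18.2 and 1699 CPM in KO-labelled libraries, against 15.5, 22.9, 11.9 and 3446 CPM in controls. The genotypes were interleaved in numbers 1 to 3, with a log2 fold change of 0.06, and over 8 libraries the log2 fold change came to −0.997 (SE 2.25). The gene shares 137 exon bases with an antisense transcript, 6530413G14Rik, which is not a row of the count table, and it is not stated whether counting used strand.

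Ctsk, at chr3:95499256-95509362 (plus strand), encodes cathepsin K, the protease that degrades bone collagen. Its level was 41.7, 21.4, 22.5 and 711 CPM in KO-labelled libraries, against 15.2, 41.6, 19.3 and 811 CPM in controls. The values again interleaved, and the differences within numbers were 1.45, −0.96, 0.22 and −0.19 on the log2 scale. The log2 fold change came to −0.16 (SE 1.64).

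Mmp9, at chr2:164940780-164955850 (plus strand), encodes a gelatinase made by osteoclasts and also by neutrophils and macrophages. Its counts were 42, 43, 24 and 53859 in KO-labelled libraries (2.61, 2.34, 1.33 and 3923 CPM), against 168, 935, 77 and 72468 in controls (8.89, 52.6, 4.48 and 5067 CPM). The KO-labelled library was the lower in each of the 4 numbers, by log2 differences of −1.73, −4.42, −1.66 and −0.37, and the groups did not overlap in numbers 1 to 3. For the order within numbers no share over all genes is given here either. The log2 fold change came to −0.39 (SE 2.78) over 8 libraries and −3.40 with an SE of 1.18 in numbers 1 to 3, where it did not pass (adjusted p of 0.142).

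Across libraries, 7 of the 10 members were highest in the 2 libraries numbered 4. Acp5 in library 4 was 97.4 times the mean of the other libraries of its group among those labelled knockout and 205.5 times among controls. The ratio for Ctsk was 24.9 in the KO-labelled group and 32.0 in controls. That for Mmp9 was 1875 in the KO-labelled group and 230.6 in controls, and that for Oscar 103.6 in the KO-labelled group and 141.1 in controls. Leaving out control 2, the highest of controls 1 to 3 for both genes, raised the control ratio to 758 for Mmp9 and to 266 for Oscar. In both groups library 4 thus lay far above the rest for these 4 genes. The fusion genes had ratios of 68.6 in the KO-labelled group and 27.7 in controls for Dcstamp (108 in the KO-labelled group without its library 3), and of 65.8 in the KO-labelled group and 610.6 in controls for Ocstamp, whose control ratio rests on only 10 counts over 3 libraries. Itgb3 differed less, with a ratio of 4.55 in the KO-labelled group and 3.26 in controls. Acp5, Ctsk and Mmp9 together took 0.606% of all counts in KO-labelled 4 and 0.915% in control 4, against 0.00414% to 0.00635% in the other KO-labelled libraries and 0.00352% to 0.0116% in the other controls.

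A higher or lower value in both libraries numbered 4 than in the other 6 was common among the 12837 tested genes: 34.2% lay above and 33.8% below. A gap of at least 2-fold above occurred in 4.41% of them and a gap of at least 10-fold in 0.343%. The gap between the lower of the 2 libraries and the highest of the other 6 was 74.6-fold for Mmp9, 74.1-fold for Acp5, 17.0-fold for Ctsk and 13.9-fold for Dcstamp, and 2.01-fold for Itgb3. For the untested genes Ocstamp and Oscar it was 48.8-fold and 30.4-fold. Tnfrsf11b lay 2.00-fold below the other 6, and for Tnfrsf11a and Nfatc1 the 2 libraries did not lie on the same side of the rest. No label sets number 4 apart, so this is a description of 2 libraries with no test.

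**Figure D4:**
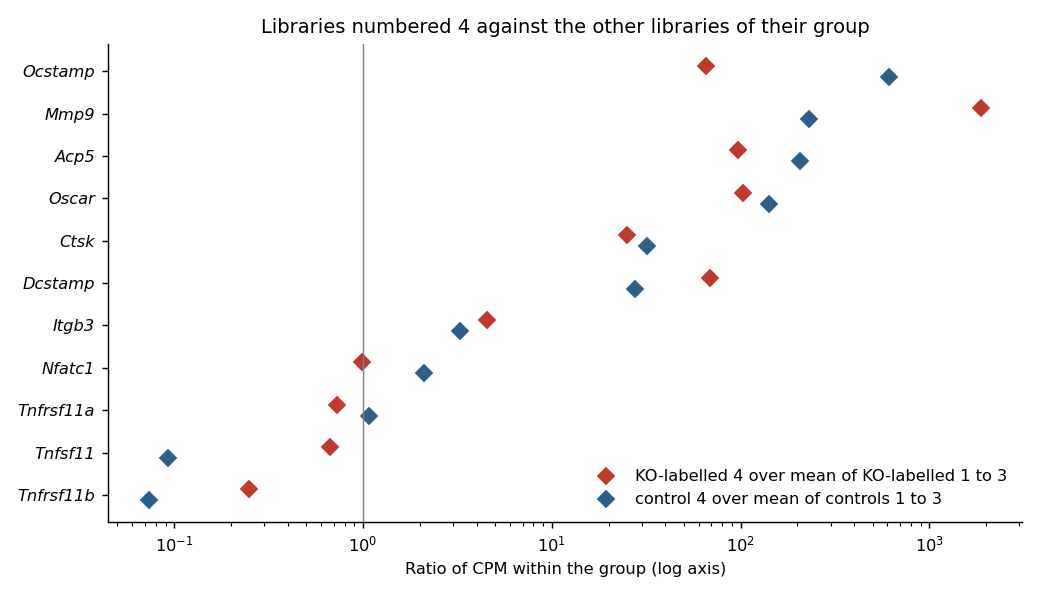
CPM of library 4 divided by the mean CPM of libraries 1 to 3 of the same group, on a log axis, with KO-labelled values drawn above control values for each gene. Itgb3, Dcstamp, Ctsk, Oscar, Acp5, Mmp9 and Ocstamp lie right of 1 in both groups, Tnfrsf11a and Nfatc1 lie between 0.732 and 2.09, and Tnfrsf11b and Tnfsf11 lie left of it.

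Between the libraries numbered 4 themselves, KO-labelled 4 was lower than control 4 for 9 of 10 members, while the median log2 difference of all tested genes in that number was 0.014. The log2 differences ran from −0.19 for Ctsk to −1.69 for Ocstamp, with Tnfrsf11b at 1.48. The share of all tested genes that were lower in KO-labelled 4 is not given here. Acp5, Ctsk, Mmp9, Oscar, Dcstamp, Ocstamp and Itgb3 were high together in the libraries numbered 4, so the 9 are not independent observations. The comparison is of 1 library with 1 other and has no replicate check.

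Some marker genes of other cells stood apart in the libraries numbered 4, but not every marker list shifted alike in both. The neutrophil markers summed to 132 CPM in KO-labelled 4 and 70.5 CPM in control 4, and the dendritic cell markers to 72.5 CPM in KO-labelled 4 and 22.2 CPM in control 4. The 16 macrophage markers summed to 54418 CPM in KO-labelled 4 and 38804 CPM in control 4, against 32258 to 42882 CPM elsewhere, but among them the mannose receptor Mrc1 was low in KO-labelled 4 (327 CPM) and control 4 (135 CPM) relative to the other 6 libraries (1058 to 1588 CPM), and Cd163 likewise (2.26 and 1.54 CPM, with 43.0 to 54.3 CPM in the rest). Others of the list were high, with Cd14 at 875 CPM in KO-labelled 4 and 730 CPM in control 4 (81.2 to 166 CPM in the rest) and Aif1 at 112 CPM in KO-labelled 4 and 102 CPM in control 4 (43.1 to 65.6 CPM in the rest). The osteoblast markers summed to 4173 CPM in KO-labelled 4 and 6449 CPM in control 4, the lowest of the 8 libraries. Among them Col1a1, Col1a2 and Sparc were lowest in these 2 libraries. Spp1 went the other way, at 1472 CPM in KO-labelled 4 and 1860 CPM in control 4 (528 to 1101 CPM in the rest). The 13 neutrophil markers summed to 120 to 132 CPM in KO-labelled libraries and 70.5 to 381 CPM in controls, nearly all of it the collagenase Mmp8, with Elane, Mpo and Ly6g at 0 or at most 0.25 CPM in each library. The 8 dendritic cell markers summed to 18.3 to 72.5 CPM in KO-labelled libraries and 22.2 to 34.2 CPM in controls, with Flt3 at most 0.42 CPM. The part of cell composition in the members' values was not tested. In numbers 1 to 3, where Itgb3 and Dcstamp fell, 3 of the 16 macrophage markers also passed, Itgam and Cd14 lower and Mrc1 higher. Over all genes 7.78% were higher and 6.29% lower in that fit, so 3 of 16 is near the share of all genes. With the replicate block as well 8 of 16 passed, 4 in each direction. That is a larger share than over all genes, of which 12.3% were higher and 11.9% lower. Itgam, an integrin chain of myeloid cells, stood at 1072 to 1120 CPM in these KO-labelled libraries and 1586 to 1945 CPM in these controls (log2 fold change −0.67, adjusted p of 0.0017). Cd14, a lipopolysaccharide co-receptor, stood at 81.2 to 99.5 CPM in the KO-labelled libraries and 123 to 166 CPM in the controls (−0.66, adjusted p of 0.0102), and Mrc1 at 1431 to 1588 CPM in the KO-labelled libraries and 1058 to 1218 CPM in the controls (0.44, adjusted p of 0.0093). The summed macrophage markers overlapped between genotypes there and the neutrophil sums did not, with Mmp8 at 116 to 125 CPM in KO-labelled libraries and 314 to 378 CPM in controls.

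**Figure D5:**
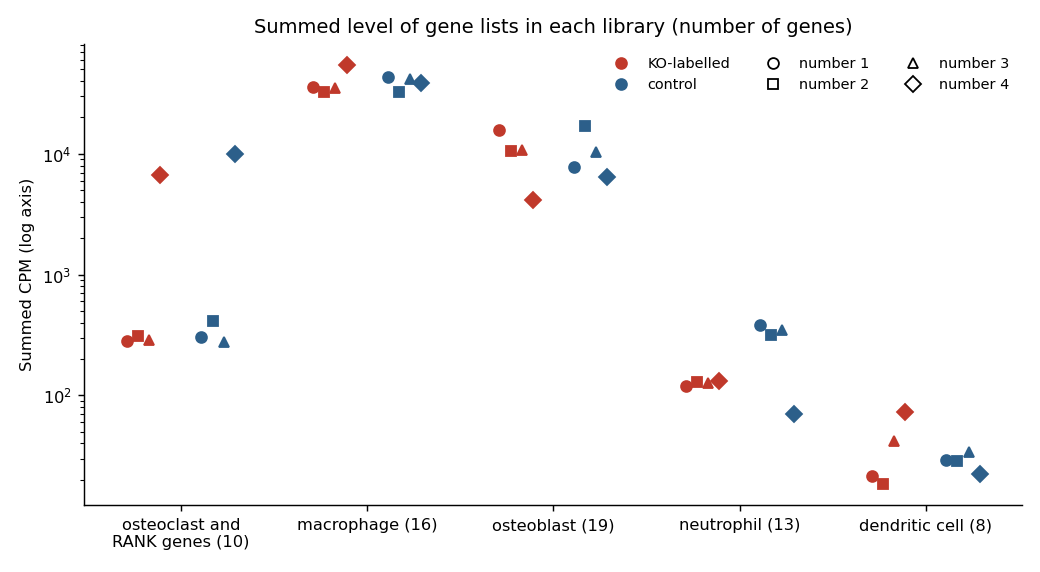
Summed CPM of the 10 members and of the 4 marker lists on a log axis, KO-labelled libraries left of controls within each list, 1 point per library. The members sum to 6688 CPM in KO-labelled 4 and 9982 CPM in control 4, against 279 to 409 CPM elsewhere, while the macrophage sums stay within 32258 to 54418 CPM.

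Levels of different genes were compared per kilobase of exon, as CPM per kb. Ctsk or Tnfrsf11b led in each of the 6 libraries numbered 1 to 3, with Ctsk at 10.04 to 27.6 and Tnfrsf11b at 7.75 to 24.4 CPM per kb. Nfatc1 (12.9 to 14.1) and Tnfrsf11a (11.8 to 13.7) lay within those ranges and overlapped each other, so the order of these 4 genes did not hold beyond the spread between libraries, and Acp5 (5.85 to 11.3) and Itgb3 (2.47 to 7.52) overlapped as well. Dcstamp, Ocstamp and Oscar came last in each of the 6, at no more than 0.95 CPM per kb. The order changed in KO-labelled 4, where Mmp9 (1108 CPM per kb), Acp5 (837) and Ctsk (470) led and Tnfrsf11b (3.88) was last. In control 4 the leading levels were 1698 CPM per kb for Acp5, 1432 for Mmp9 and 536 for Ctsk, with Tnfrsf11b again last at 1.36.

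The genes whose profile over the 8 libraries lay nearest to each tested member were found by the root mean square difference of centred log2 CPM, as a description. Tnfrsf11a lay nearest to Med18 (0.0578), Tmem135 and Xpot, which like it hardly varied, and Nfatc1 to Got2 (0.109), Idh3a and Slc6a8. Itgb3 lay nearest to Nudt8 (0.231), Adora2b and Irf7, and Tnfrsf11b to Kcnmb1 (0.195), Myh10 and Nexn. Dcstamp lay nearest to Ly6i (0.417), Slc12a5 and Plbd1, Acp5 to Traf1 (0.586), Eno1b and Slc9b2, and Ctsk to Ak4 (0.296), Slc16a3 and Gas7. Mmp9 had no close neighbour, the nearest being Saa3 at 1.40, then Arg1 and Eno1b. Nothing further is read from these neighbours.

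The wider pathway was followed in 7 lists of 63 genes, of which 60 were tested. With all 8 libraries 0 were higher and 0 lower, 22 had a positive log2 fold change, and the median was −0.08 against −0.02 over all genes. With the replicate block Tec was higher and Cd9, Adam8 and Src were lower, where 1.31% of all genes were higher and 1.18% lower. With number 1, 2 or 3 left out of both groups, however, the block called 0 genes of any kind. In numbers 1 to 3, 6 were higher and 14 lower, against the shares of 7.78% and 6.29% over all genes there. With the block as well 9 were higher and 19 lower, against shares of 12.3% and 11.9% over all genes in that fit.

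Of the 16 genes of RANK ligand and signalling, 6 had a positive value, with a median of −0.07. Traf3, an inhibitor of the alternative NF-κB pathway, was at −0.27 (SE 0.15), its target kinase Map3k14 at −0.20 (SE 0.18) and the NF-κB subunit Rela at −0.15 (SE 0.11), and none passed. Without the libraries numbered 4 Traf3 (−0.39, adjusted p of 0.0129) and Rela (−0.24, adjusted p of 0.0481) fell beside Tnfsf11, and with the replicate block as well Map3k14 fell (adjusted p of 0.0194). Traf6, the adaptor that RANK signals through, stood at 0.13 with an SE of 0.26.

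Among the 3 genes of the M-CSF axis, Csf1 stood at 439, 583, 518 and 180 CPM in KO-labelled libraries, against 677, 777, 804 and 121 CPM in controls. Its log2 fold change came to −0.47 (SE 0.58), and it fell in numbers 1 to 3 (−0.55, SE 0.11, adjusted p of 0.0128). Il34, the other ligand of the receptor, was at −0.80 (SE 0.27, adjusted p of 0.767) and Csf1r at 0.12 (SE 0.18).

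Costimulatory signalling held 10 genes, 7 of them with a positive value and a median of 0.12. Tec, a kinase downstream of the receptors, was at 0.33 (SE 0.11, adjusted p of 0.767) and rose with the replicate block (adjusted p of 0.0474). The adaptor Blnk was at 0.38 (SE 0.27) and rose in numbers 1 to 3 (0.72, SE 0.09, adjusted p of 0.0016). Trem2 (0.18, SE 0.15) and its adaptor Tyrobp (−0.25, SE 0.20) did not pass with all 8 libraries. In numbers 1 to 3 with the replicate block, Trem2 rose (0.23, adjusted p of 0.0305) and Tyrobp fell (−0.30, adjusted p of 0.0044).

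Of 8 osteoclast transcription factors 1, Fosl1, had a positive value (0.17, SE 0.27), and the list's median was −0.10. Fos, which is required for osteoclast formation in mice, stood at 257, 200, 247 and 572 CPM in KO-labelled libraries, against 553, 447, 442 and 491 CPM in controls. Its log2 fold change of −0.60 (SE 0.33) did not pass, and in numbers 1 to 3 it fell (−1.03, SE 0.12, adjusted p of 0.0016). Fosl2 (−0.37, SE 0.35) and Jdp2 (−1.07, SE 0.94) did not pass with all 8 libraries and fell in numbers 1 to 3, with values of −0.34 and −0.37 there.

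The 3 repressors of osteoclast genes given here had a median of −0.28. Rbpj, the nuclear effector of Notch that restrains osteoclast formation, stood at 185, 190, 182 and 188 CPM in KO-labelled libraries, against 361, 321, 330 and 157 CPM in controls. Its log2 fold change was −0.65 (SE 0.24, adjusted p of 0.897), and it fell in numbers 1 to 3 (−0.86, SE 0.07, adjusted p of 0.0002). Bcl6 was at −0.28 (SE 0.13) and fell in numbers 1 to 3 (−0.35, adjusted p of 0.0269), while Irf8 (0.0030, SE 0.23) did not pass in either fit.

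Fusion and adhesion genes numbered 13, of which 12 were tested and 3 had a positive value, with a median of −0.28. The tetraspanin Cd9 stood at 162, 150, 179 and 147 CPM in KO-labelled libraries, against 221, 227, 244 and 192 CPM in controls, without overlap. The log2 fold change, −0.47 (SE 0.12), did not pass (adjusted p of 0.51), and Cd9 fell with the replicate block (adjusted p of 0.0361), with DESeq2 (adjusted p of 0.029) and in numbers 1 to 3 (adjusted p of 0.0035). Adam8, a membrane metalloprotease, was at −0.44 (SE 0.26) and fell with the block (adjusted p of 0.0427). Cd81, a tetraspanin (−0.23, SE 0.26), and Dock5, a Rac exchange factor of the osteoclast cytoskeleton (−0.33, SE 0.16), fell in numbers 1 to 3, with values of −0.28 each. Atp6v0d2, a proton pump subunit required for fusion in mice and named after its values were seen, stood at 11.04, 11.5, 16.8 and 124 CPM in KO-labelled libraries, against 5.93, 8.09, 6.17 and 321 CPM in controls, and it rose in numbers 1 to 3 (0.97, SE 0.20, adjusted p of 0.0144).

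The resorption machinery list held 10 genes, of which 8 were tested and 3 had a positive value, with a median of −0.08. Ckb, the brain-type creatine kinase, stood at 213, 223, 233 and 532 CPM in KO-labelled libraries, against 163, 175, 180 and 1104 CPM in controls. Its log2 fold change was −0.43 (SE 0.71), and in numbers 1 to 3 it rose (0.37, SE 0.06, adjusted p of 0.0053), as did the trafficking gene Plekhm1 (0.43, SE 0.09, adjusted p of 0.0124). The anion exchanger Slc4a2 (−0.26, SE 0.32) and the membrane protease Mmp14 (−0.18, SE 0.42) passed in neither fit. The low-count filter removed Car2, Calcr and, from the fusion list, Siglec15, named here for that reason. The carbonic anhydrase gene Car2 stood at 38.5 CPM in KO-labelled 4 and 106 CPM in control 4, against at most 0.73 CPM elsewhere. The calcitonin receptor gene Calcr, a marker of mature osteoclasts, had 79 counts in KO-labelled 4 and 53 in control 4, against 0 or 1 in each other library.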

How the data were processed

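Polyadenylated RNA of 8 libraries was analysed, 4 labelled knockout and 4 labelled control, grouped and numbered by sample title. The authors deposited whole-number read counts per gene symbol, with no normalization seen in the values. The genome build GRCm38 (mm10) and the tools STAR 2.7.11b and featureCounts 2 are named per the submitters' processing notes. The annotation counted, the use of strand and the treatment of reads with several alignments are not given in the sources used here. Of 25239 symbols, 24323 (96.4%) matched exactly 1 gene of GENCODE M21, which gave coordinates and exon lengths. Same-group libraries differed beyond sampling noise (chi-square over its degrees of freedom, 8.56 to 307), and each was counted as its own sample. This check cannot tell separate animals from separate preparations of the same cells.

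Counts were fitted with edgeR 4.0.16 in R 4.3.3 (filterByExpr, TMM factors, robust quasi-likelihood F test, genotype alone), with Benjamini-Hochberg adjustment over all genes tested and a threshold of 0.05. CPM used the TMM factors, log2 CPM a prior count of 2, and the ratio of Tnfsf11 to Tnfrsf11b 0.5 added to each count before the log. Single values were tested by exact two-sided permutation. The fits were run on simulated counts with known changes, to check the size of the estimates. Same-numbered libraries shared their means there, so these runs do not bear on the pairing or on the calls made here. Alternatives were other scalings, DESeq2 1.42.0, other low-count filters, the replicate number as a block and libraries or numbers left out. With 3 libraries left in a group, the fits pool the spread over all genes.

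Same-numbered libraries deviated together from their group means, with a correlation across genes of 0.460, 0.724, 0.665 and 0.829 for numbers 1 to 4, and of 0.161, 0.290 and 0.376 for numbers 1 to 3 with number 4 left out. All exceed 0.1, the cut-off used, and the libraries were therefore paired by number in the alternatives. No label states a pairing. No correlation was computed between differently numbered libraries, so these values cannot settle whether the numbers pair the libraries. The pairing enters only the alternative with the block and the sign-flip test, not the results of genotype alone.

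Members, lists and settings were chosen with earlier results of these data known. Named genes are the 10 members, Tnfsf11, up to 4 genes per other list with the smallest unadjusted p and the 3 nearest profiles per tested member. Others named (Sphk2, Traf6, Itgav, Src, Fcer1g, Atp6v0d2, Car2, Calcr, Siglec15 and marker genes) fall outside that rule and were chosen after their values were seen. A list gene is not reported here and was left out of the list counts. No sequence is shown for members without a promoter window.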

Additional observations from a re-analysis of the deposited data

Results flagged for a closer look

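Within each group of 4 libraries, a library was singled out where its gap to the nearest other library, divided by the group's whole range of log2 CPM, exceeded Dixon's critical value for groups of this size. Of 84 groups examined 23 were singled out, 11 for KO-labelled 4 and 12 for control 4 and none for another library. Chance singles out about 1 in 20 groups where groups are independent. These groups share the same 8 libraries and are not independent, so the count is a description and no test.

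Among the 10 members, the resorption genes stood out upward: Acp5 in KO-labelled 4 (0.980) and in control 4 (0.885), and Mmp9 in KO-labelled 4 (0.920). The receptor and fusion genes that stood out upward were Oscar in KO-labelled 4 (0.969), Dcstamp in control 4 (0.958), and Ocstamp in KO-labelled 4 (0.854) and control 4 (0.965). Nfatc1 was high in control 4 (0.885) and Tnfrsf11a low in KO-labelled 4 (0.908).

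Of the wider pathway, Jdp2 was high in KO-labelled 4 (0.915) and control 4 (0.920), and Ckb in KO-labelled 4 (0.902) and control 4 (0.950). Fosl2 (0.843) and Mmp14 (0.840) were high in KO-labelled 4, and Dock5 (0.910) and Slc4a2 (0.903) in control 4. Plekhm1 was low in KO-labelled 4 (0.896). Csf1 (0.909), Rbpj (0.860) and Cd81 (0.853) were low in control 4. Sphk2 was high in KO-labelled 4 (0.942), and the summed neutrophil markers were low in control 4 (0.891).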

How the results depend on the processing

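Over all genes DESeq2 called 115 higher and 45 lower and the replicate block 168 and 151, against 0 and 0, and leaving out libraries or numbers gave 0 to 1593 higher and 0 to 1539 lower. Members called lower ranged from 0 to 2 with libraries left out, the 2 being Itgb3 and Dcstamp without number 4, and members called higher stayed at 0. With all 8 libraries the replicate block changed no call of a member. The cause of these shifts was not tested. Among the members and the list genes named by smallest p, directions that turned with all 8 libraries were those of Tnfrsf11a under total-count scaling (0.027), Ctsk (0.11) and Ckb (0.022) with the replicate block, and Irf8 with RLE scaling (−0.0019), DESeq2 (−0.0021) and the block (−0.0032). Of the other list genes, Atp6v0d2 turned from −1.06 to 0.21 with the block, Tcirg1 from −0.14 to 0.03 and Lgr4 from −0.020 to 0.0089. With libraries left out, log2 fold changes ran from −5.65 to 4.69 for Acp5, −2.96 to 2.96 for Ctsk, −9.26 to 5.46 for Mmp9, −5.12 to 1.93 for Dcstamp, −0.47 to 0.013 for Nfatc1, −0.081 to 0.12 for Tnfrsf11a and −0.68 to 0.35 for Tnfrsf11b. For Acp5, Ctsk, Mmp9 and Dcstamp the low ends came without KO-labelled 4 and the high ends without control 4. Itgb3 (−1.59 to −0.04), Tnfsf11 (−1.82 to −1.04) and the ratio of Tnfsf11 to Tnfrsf11b (−1.47 to −0.93) kept their sign. Among the list genes named by smallest p, ranges that crossed 0 were −0.86 to 0.79 for Ckb, −1.97 to 0.53 for Jdp2, −0.58 to 0.25 for Mmp14, −0.42 to 0.14 for Slc4a2, −0.022 to 0.40 for Fosl1 and −0.20 to 0.17 for Irf8. Counts of 1 to 16 in numbers 1 to 3 limit what Oscar, Ocstamp and, in KO-labelled libraries, Dcstamp can show.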
